A study of Mus musculus with 8 samples.

Results

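The Hoxb genes described here are the 8 genes Hoxb2 to Hoxb9, found by exact symbol among the 24421 genes of the deposited tables. All 8 passed the filter on low counts, as did 15917 genes in all. Total RNA had been sequenced from long-term haematopoietic stem cells of mice aged 10 to 12 months, sorted as lineage-negative, CD117+, Sca1+, CD150 high and CD48 low. A Vwf-GFP reporter, which marks cells using the gene for the platelet protein von Willebrand factor, divided them into Vwf+ and Vwf- cells. Each fraction came from wild-type (WT) mice and from mice heterozygous for the DNA methyltransferase gene Dnmt3a (Dnmt3a+/-), so there were 4 groups of 2 libraries. Each library was a pool of 3 to 4 mice. Replicate 1 was male and replicate 2 female in every group, so sex and replicate number cannot be told apart. The labels do not describe the altered Dnmt3a allele.

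Library totals ran from 21809278 to 39402418 counts. Vwf itself lay between 1030 and 1410 CPM (read counts scaled to library size and composition) in Vwf+ libraries and between 98.9 and 116 in Vwf- libraries. For the Dnmt3a gene the male and female Vwf+ libraries read 175 and 203 CPM (WT) or 179 and 279 CPM (Dnmt3a+/-). The Vwf- libraries read 251 and 202 CPM (WT) or 361 and 275 CPM (Dnmt3a+/-). The Dnmt3a count was thus not lower under the Dnmt3a+/- label, and without a description of the allele it does not check that label. Of 12 stem cell marker genes, none was at 0 in any library, and their summed level was 3180 to 3990 CPM. Erythroid markers summed to 12.1 to 20.1 CPM and B cell markers to 11.4 to 18.8 CPM. The globin genes Hba-a1, Hba-a2, Hbb-bs and Hbb-bt were at 0 in every library, so the erythroid sum rests on the other genes of that list. Monocyte and macrophage markers summed to 228 to 242 CPM in Vwf+ and 162 to 213 CPM in Vwf- libraries.

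Hox genes encode homeodomain transcription factors and sit in clusters in which gene order follows the position along the body axis where each gene is used in the embryo. Low-numbered genes are used towards the head and high-numbered genes towards the tail. In blood, Hox proteins act with Pbx and Meis partners, the Mll complex helps to keep the clusters active, and Polycomb complexes keep them silent. Within the Hoxb cluster, Hoxb4 is known for expanding stem cells when overexpressed, Hoxb5 for marking long-term stem cells, and Hoxb8 for blocking myeloid differentiation when overexpressed.

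The 8 genes lay on the plus strand of mouse chromosome 11 (GRCm38, the build also called mm10; GENCODE M21 annotation) within 82.6 kb, from Hoxb9 at 96271457 to 96276595 to Hoxb2 at 96350525 to 96354012. Between them, in this order, came Hoxb8 (96281905 to 96285315), Hoxb7 (96286623 to 96290162), Hoxb6 (96292476 to 96301569), Hoxb5 (96303336 to 96306121), Hoxb4 (96318267 to 96321638) and Hoxb3 (96323326 to 96347930). The antisense gene Hoxb3os shares 2250 exonic bases with Hoxb3 and 953 with Hoxb2, and Hoxb5os shares 100 with Hoxb5. The strand setting of the counting is not given in the sources used here, so reads over those bases cannot be assigned to a strand. Hoxb5os has an entry in the deposited counts, but Hoxb3os has none under that symbol. If strand was ignored, Hoxb3os reads over the shared bases could have been counted as Hoxb3 or Hoxb2. Their part in the levels of these genes was not tested. The microRNA gene Mir10a lies between Hoxb5 and Hoxb4, and Mir196a-1 lies before Hoxb9.

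Promoter sequence was at hand for 2 of the 8 genes, Hoxb8 and Hoxb4. Both are shown because no others were at hand. Their transcripts stood far apart in the comparison of Vwf+ with Vwf- cells below, and a link of promoter sequence to that difference was not tested. Each is the 250 bases before the gene's start from RefSeq (GRCm38.p6), 5′ to 3′ on the plus strand, with CG dinucleotides, the sites that DNA methyltransferases act on, in capitals. Hoxb8 is chr11:96281655-96281904 and Hoxb4 is chr11:96318017-96318266.
Hoxb8: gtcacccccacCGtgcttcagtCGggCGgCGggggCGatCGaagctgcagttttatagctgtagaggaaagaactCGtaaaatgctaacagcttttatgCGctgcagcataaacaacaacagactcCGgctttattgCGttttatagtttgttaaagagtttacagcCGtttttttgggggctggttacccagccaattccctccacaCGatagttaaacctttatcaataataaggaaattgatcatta
Hoxb4: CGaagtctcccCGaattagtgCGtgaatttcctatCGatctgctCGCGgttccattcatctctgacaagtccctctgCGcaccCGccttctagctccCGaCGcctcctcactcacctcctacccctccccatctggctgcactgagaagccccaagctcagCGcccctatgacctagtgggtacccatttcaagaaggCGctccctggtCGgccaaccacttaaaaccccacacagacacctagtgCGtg
The Hoxb8 stretch held 12 CG dinucleotides at 44.4% GC, an observed to expected CpG ratio of 0.974. The Hoxb4 stretch held 14 at 58% GC, a ratio of 0.76. The medians over 32851 promoters of 27025 genes were 6 CG dinucleotides, 52.4% GC and a ratio of 0.374. Methylation of these sites was not analysed here.

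Short promoter motifs were searched on both strands of these stretches. TATAAA occurred in Hoxb8 at 2 places, both on the minus strand, 199 and 110 bases before the start; 12.4% of all promoters held it. Hoxb8 also held CCAAT 57 bases before the start (in 33.8% of promoters) and CCGCCC on the minus strand at 227 (32.7%). Hoxb4 held AGGTCA, part of the sites of nuclear receptors, on the minus strand at 81 bases before the start (14%). CACGTG (6.02%) was in neither. These are matches of letters and not mapped binding sites.

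The cluster's microRNAs are shown with the target site that miR-196a has in Hoxb8, since this pairs a microRNA of the cluster with the member that had the smallest p-value. In the microRNAs, capitals mark the seed (bases 2 to 8). In the site, a stretch of the Hoxb8 3′ UTR at chr11:96284888-96284909, capitals mark the bases opposite the seed.
miR-196a-5p: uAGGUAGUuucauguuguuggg
miR-10a-5p: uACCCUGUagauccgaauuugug
Hoxb8 site: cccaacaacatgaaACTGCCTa
Of the 22 bases of miR-196a-5p, 21 formed Watson-Crick pairs with the Hoxb8 site and 1 a G:U pair. That G:U pair lay within the seed. The best ungapped site in the other 7 genes formed 13 or 14 Watson-Crick pairs. In Hoxb7 this site (14 pairs), in the 3′ UTR, paired with the whole seed by Watson-Crick pairs. Sites were ranked by pairs over the whole microRNA, and seed matches alone were not searched. Action of miR-196a on any of these sites was not tested. The library kit does not measure mature microRNAs. The Mir196a-1 gene had 0 to 6 counts per library and was not tested.

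Vwf+ cells held more Hoxb transcript than Vwf- cells, and the mix of genes differed. With both genotypes averaged, 5 of the 8 genes rose in Vwf+ cells (Hoxb9, Hoxb8, Hoxb6, Hoxb5 and Hoxb2) and none fell, against 3.76% of all tested genes that rose (599) 1.68% that fell and 5.44% called in either direction. A gene counts as called at an adjusted p under 0.05 in edgeR's quasi-likelihood test. The median log2 difference was 1.56 over the 8 genes and -0.01 over all tested genes. Hoxb9 passed the filter on low counts only through the Vwf+ libraries, where it is high; of the other 7 genes, 4 rose, and their median was 1.21. All 4 Vwf+ libraries were above all 4 Vwf- libraries for 6 of the 8 genes; 7.71% of tested genes were higher and 5.33% lower in that way. Without Hoxb9 this was 5 of 7. In these bulk libraries, fewer expressing cells and less RNA per cell cannot be told apart.

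**Figure D1:**
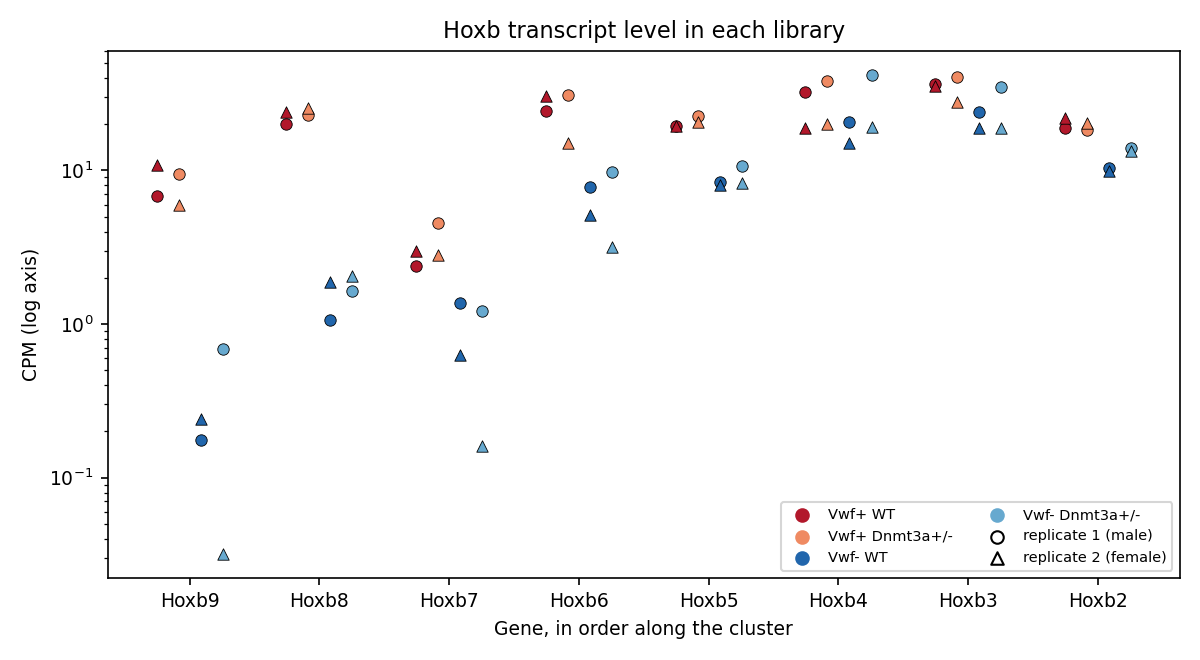
Level of each Hoxb gene in the 8 libraries, in CPM on a log axis, with genes in their order along the cluster. Colours mark the groups, circles male pools and triangles female pools. Hoxb9 and Hoxb8 show the widest separation of Vwf+ (red and orange) from Vwf- (dark and light blue) libraries, and Hoxb4 and Hoxb3 overlap.

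Hoxb8 had the smallest p-value of the cluster, rank 7 of all tested genes. Of the Vwf+ libraries, the WT pair read 20 CPM (male) and 24.1 CPM (female) and the Dnmt3a+/- pair 22.8 CPM (male) and 25.5 CPM (female). Of the Vwf- libraries, the WT pair read 1.06 and 1.89 CPM in the same order, and the Dnmt3a+/- pair 1.65 and 2.04 CPM. The lowest Vwf+ library was thus far above the highest Vwf- library. The averaged difference was 13.9-fold, a log2 difference of 3.8 ± 0.23 (SE; edgeR adjusted p = 2e-05). In the 4 same-sex, same-genotype pairs the ratio was 18.8, 12.7, 13.9 and 12.5. Hoxb8 kept its call in each alternative run for this averaged contrast.

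Hoxb9, at the 5′ end of the cluster, was near the limit of counting in Vwf- cells. The Vwf+ libraries read 6.84 and 10.8 CPM (WT, male and female) and 9.47 and 5.93 CPM (Dnmt3a+/-). The 4 Vwf- libraries read 0.177 and 0.24 CPM (WT, 5 and 8 counts) and 0.692 and 0.0319 CPM (Dnmt3a+/-, 29 and 1 counts). Only 1 of the 4 Vwf- libraries exceeded the CPM minimum of the filter, 0.353, so Hoxb9 was tested because of its level in Vwf+ cells. The averaged log2 difference was 4.84 ± 0.61 (28.7-fold, edgeR adjusted p = 0.0014). On the log2(TPM + 1) scale, whose added 1 exceeds the Vwf- levels, limma gave 2.56 (adjusted p = 0.0014), with 2.64 in WT and 2.48 in Dnmt3a+/- cells. The female Dnmt3a+/- pair gave a ratio of 186 with a 95% counting interval (exact binomial, counting error only) of 32.9 to 7390, since it rests on 1 count in Vwf- cells. The male Dnmt3a+/- pair gave 13.7 (9.26 to 20.9). Without the male Vwf- Dnmt3a+/- library the averaged log2 difference was 6.53 (adjusted p = 5.3e-06).

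Hoxb6 and Hoxb7 came next along the cluster in their size of difference. Hoxb6 was at 24.5 and 30.6 CPM (Vwf+ WT) and 31.2 and 15.2 CPM (Vwf+ Dnmt3a+/-), against 7.78 and 5.16 CPM (Vwf- WT) and 9.74 and 3.19 CPM (Vwf- Dnmt3a+/-). Its groups did not overlap, and its log2 difference was 1.96 ± 0.35 (3.89-fold, edgeR adjusted p = 0.009). Hoxb7 was the most weakly expressed gene in Vwf+ WT cells, reading 2.38 and 2.97 CPM there and, under the Dnmt3a+/- label, 4.56 and 2.82 CPM. Its Vwf- readings were 1.38 and 0.63 CPM (WT) and 1.22 and 0.16 CPM (Dnmt3a+/-), the last from 5 counts. Although the Vwf+ and Vwf- libraries did not overlap, the log2 difference of 1.9 ± 0.58 did not pass (edgeR adjusted p = 0.098). It passed with DESeq2 (adjusted p = 0.011), with the replicate number, and so sex, as a block (2.12, 0.0053), and without the male Vwf- Dnmt3a+/- library (2.95, 0.0043).

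Hoxb5, the marker of long-term stem cells, showed little spread. Both Vwf+ WT libraries read 19.5 CPM and the Vwf+ Dnmt3a+/- libraries 22.5 and 20.7 CPM, against 8.42 and 8.07 CPM (Vwf- WT) and 10.7 and 8.23 CPM (Vwf- Dnmt3a+/-). The log2 difference was 1.21 ± 0.15 (2.32-fold, edgeR adjusted p = 0.0016), and the 4 pairs gave ratios of 2.32, 2.41, 2.1 and 2.51. Hoxb2, the last of the 8 at the 3′ end, was at 19 and 22.1 CPM (Vwf+ WT), 18.4 and 20.5 CPM (Vwf+ Dnmt3a+/-), 10.4 and 9.87 CPM (Vwf- WT) and 14.1 and 13.3 CPM (Vwf- Dnmt3a+/-). Its log2 difference was 0.76 ± 0.14 (1.69-fold, edgeR adjusted p = 0.013). This call was lost without the female Vwf+ WT library (0.71, adjusted p = 0.06) or the female Vwf- WT library (0.74, 0.076).

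Hoxb3 and Hoxb4 were the 2 genes whose Vwf+ and Vwf- libraries overlapped. Hoxb3 was at 36.6 and 35.5 CPM (Vwf+ WT), 40.7 and 27.7 CPM (Vwf+ Dnmt3a+/-), 23.9 and 18.8 CPM (Vwf- WT) and 34.8 and 18.9 CPM (Vwf- Dnmt3a+/-). Its log2 difference was 0.55 ± 0.21 (edgeR adjusted p = 0.19); with the replicate block it passed at 0.57 (adjusted p = 0.0034), and without the male Vwf- Dnmt3a+/- library at 0.8 (0.013). Hoxb4 was at 32.6 and 18.9 CPM (Vwf+ WT), 38.3 and 20.2 CPM (Vwf+ Dnmt3a+/-), 20.7 and 15.2 CPM (Vwf- WT) and 42 and 19.3 CPM (Vwf- Dnmt3a+/-). Its highest level was in a Vwf- library. The Hoxb4 difference was 0.22 ± 0.29, with a 95% interval of -0.42 to 0.87 (edgeR adjusted p = 0.79), so a rise of up to that size was not excluded by the interval.

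**Figure D2:**
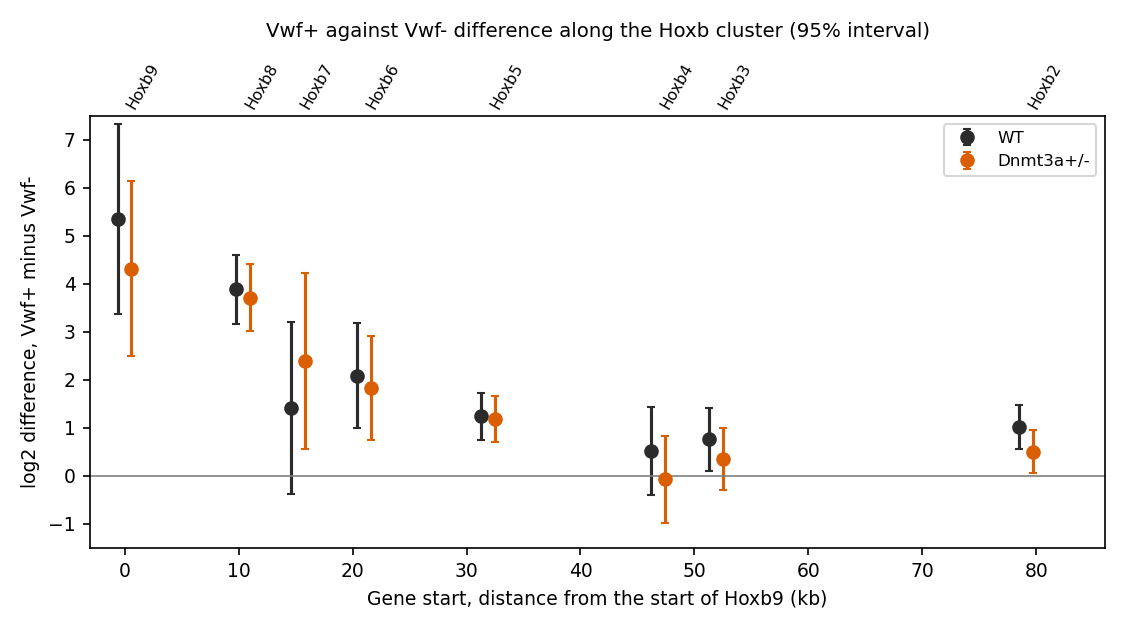
Log2 difference between Vwf+ and Vwf- cells for each Hoxb gene against the distance of its start from that of Hoxb9, in kb, with 95% intervals from the edgeR fit, for WT (black) and Dnmt3a+/- (orange). In both genotypes the differences are largest at Hoxb9 (5.36 in WT, 4.32 in Dnmt3a+/-) and Hoxb8 (3.89 and 3.71). They are smallest at Hoxb4 (0.52 and -0.07), with Hoxb2 (1.02 and 0.5) above Hoxb3 and Hoxb4. The wide Hoxb9 intervals (3.38 to 7.34 in WT, 2.5 to 6.15 in Dnmt3a+/-) include the Hoxb8 values.

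Read by position, the averaged log2 difference was 4.84 at Hoxb9, 3.8 at Hoxb8, 1.9 at Hoxb7, 1.96 at Hoxb6, 1.21 at Hoxb5, 0.22 at Hoxb4, 0.55 at Hoxb3 and 0.76 at Hoxb2. The starts of these genes lie 0, 10.4, 15.2, 21, 31.9, 46.8, 51.9 and 79.1 kb from that of Hoxb9. The order of these estimates followed position from Hoxb9 to Hoxb4, except that Hoxb6 and Hoxb7 were level within their errors. The estimates did not fall further towards Hoxb2. Hoxb9 and Hoxb8 were not clearly separated either, since the edgeR interval of Hoxb9 (3.5 to 6.19) included the Hoxb8 value. Limma on TPM, where the added 1 exceeds the Vwf- levels of Hoxb9, turned their order. It gave 2.56 for Hoxb9 and 3.03 for Hoxb8 averaged, 2.64 and 2.99 in WT, and 2.48 and 3.07 in Dnmt3a+/- cells. The 8 genes are neighbours and are not independent points, so no test was made of this order.

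The differences appeared in each genotype. In WT cells 4 of the 8 genes rose and none fell (1.48% of tested genes rose and 0.496% fell): Hoxb9 by 5.36 ± 0.89, Hoxb8 by 3.89 ± 0.32, Hoxb5 by 1.24 ± 0.22 and Hoxb2 by 1.02 ± 0.21 on the log2 scale (edgeR adjusted p = 0.016, 0.00042, 0.021 and 0.036). Without Hoxb9 this was 3 of 7. Hoxb6 missed the threshold (2.09 ± 0.5, adjusted p = 0.07) and passed with the replicate block (2.19, 7.9e-05), as did Hoxb3 (0.78, 0.008). In Dnmt3a+/- cells 3 rose and none fell (0.892% of tested genes rose and 0.17% fell): Hoxb9 by 4.32 ± 0.82, Hoxb8 by 3.71 ± 0.32 and Hoxb5 by 1.19 ± 0.22 (edgeR adjusted p = 0.041, 0.00077 and 0.037). With the replicate block Hoxb6 (1.88, adjusted p = 0.00047) and Hoxb7 (2.61, 0.032) passed there too, which made 5 of 8. Without Hoxb9 and without the block it was 2 of 7. Hoxb8 was called in both genotypes with any single library left out. The Hoxb2 call in WT was lost without any 1 of the 4 WT libraries (adjusted p 0.1 to 0.37). The Hoxb5 call in WT was lost likewise (0.093 to 0.23), and the Hoxb9 call in WT without either Vwf- library (0.065 and 0.11) or the female Vwf+ library (0.099). Limma on log2(TPM + 1) did not call Hoxb2 (0.1) or Hoxb5 (0.099) in WT or Hoxb5 in Dnmt3a+/- cells (0.082). In Dnmt3a+/- cells, leaving out either Vwf+ library of either genotype ended the Hoxb9 call (adjusted p 0.058 to 0.095), and without the male Vwf- Dnmt3a+/- library its log2 difference was 7.72. The Hoxb5 call there was lost in 7 of the 8 fits that left out a library (0.052 to 0.16).

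The difference between the genotypes in the Vwf+ to Vwf- contrast was tested directly. None of the 8 genes, and 0% of all genes, passed for this interaction in edgeR; 159 genes and none of the 8 had an unadjusted p under 0.05, and DESeq2 called none of the 8. The estimates ran from -1.04 ± 1.14 for Hoxb9 to 0.97 ± 1.13 for Hoxb7. For Hoxb8 the interaction was -0.17 with a 95% interval of -1.1 to 0.76, and for Hoxb5 it was -0.05 (-0.73 to 0.63). These intervals still allow differences of about the size of the Hoxb2 effect.

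The make-up of the cluster's RNA differed between the fractions. In TPM, a unit that accounts for gene length, the 8 genes summed to 139 to 192 in Vwf+ libraries and to 59.3 to 105 in Vwf- libraries. Hoxb6 to Hoxb9 made up 39.7% to 48.6% of that sum in Vwf+ libraries and 11.7% to 22.7% in Vwf- libraries. From Vwf- to Vwf+ cells, the share of Hoxb8 was 1.97% ± 0.843 and 11.6% ± 2.4, that of Hoxb9 0.275% ± 0.204 and 3.95% ± 0.769, and that of Hoxb6 14% ± 3.98 and 24.6% ± 4.88 (SD, n = 4). The share of Hoxb4 was 26.7% ± 4.68 in Vwf- cells and 13.8% ± 3.76 in Vwf+ cells, while that of Hoxb5 was 14.1% ± 2.04 and 14.3% ± 1.83. Shares are parts of a whole, so a lower share of Hoxb4 does not mean a lower level.

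**Figure D3:**
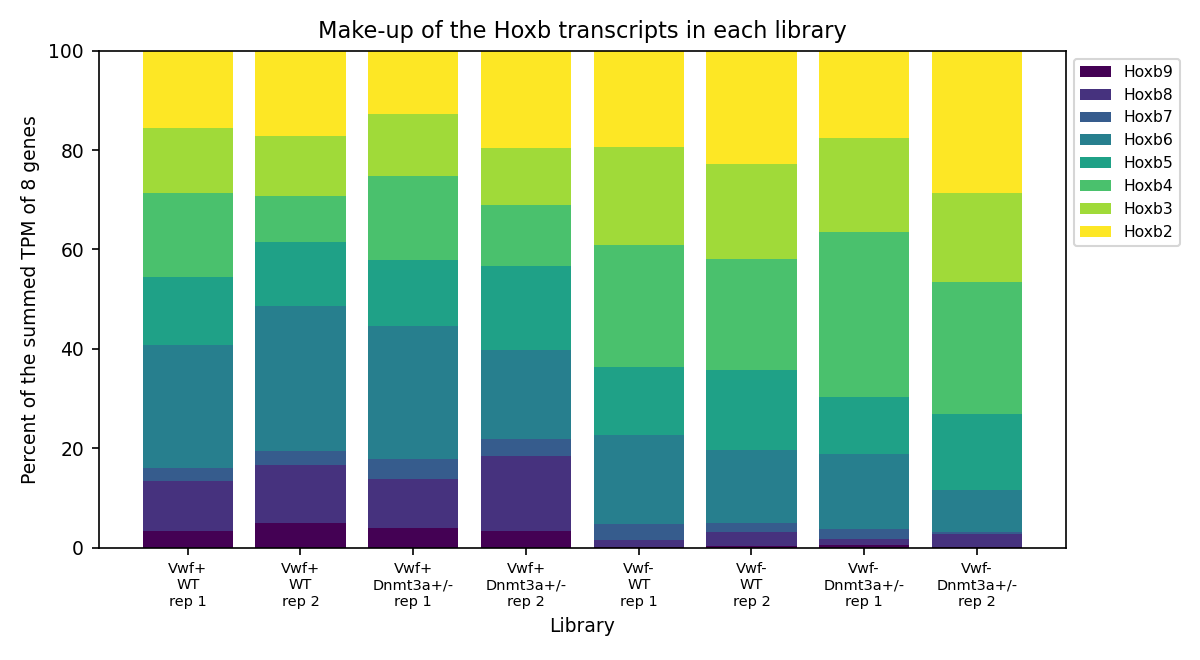
Share of each Hoxb gene in the summed TPM of the 8 genes, as a percent, in each library. The dark segments at the bottom (Hoxb9 to Hoxb6) reach 39.7% to 48.6% in the 4 Vwf+ libraries and 11.7% to 22.7% in the 4 Vwf- libraries.

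Ordered by TPM, Hoxb6 led in Vwf+ WT cells at 40.7 ± 1.76 (SD, n = 2), above Hoxb2 at 24.8 ± 0.204. Hoxb5, Hoxb4 and Hoxb3 (20.3, 20.2 and 19.1 TPM) followed with overlapping libraries, then Hoxb8 (16.3 TPM), Hoxb9 (6.31 TPM) and Hoxb7 (4.12 TPM). In Vwf+ Dnmt3a+/- cells the first 6 genes, from Hoxb6 at 38 ± 18.7 TPM to Hoxb8 at 19.8 ± 1.47, each overlapped the next, and Hoxb7 (6.3) and Hoxb9 (6.18) lay below them. In Vwf- cells Hoxb4 led in WT (15 ± 2.5 TPM) and in Dnmt3a+/- (25.3 ± 13.6 TPM), overlapping Hoxb2 in both. Hoxb9 was last there, at 0.168 and 0.286 TPM. The gene lengths behind the TPM were 0.619 (Hoxb2) to 1.39 (Hoxb9) times the GENCODE exon lengths. With GENCODE lengths the mean share of Hoxb2 in Vwf+ cells was 9.89% in place of 16.3%, and Hoxb6 to Hoxb9 made up 41.8% to 51.5% in Vwf+ and 11.8% to 21.3% in Vwf- libraries.

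No Hoxb gene differed detectably between libraries labelled Dnmt3a+/- and WT. With Vwf status averaged, none of the 8 genes and 0% of tested genes passed in edgeR; 516 genes and none of the 8 had an unadjusted p under 0.05. DESeq2 called 16 genes and edgeR with the replicate number as a block called 30, with none of the 8 in either. The WT and Dnmt3a+/- libraries overlapped for each of the 8 genes; 1.24% of tested genes were higher and 0.848% lower without overlap in Dnmt3a+/- libraries. The largest estimate was for Hoxb4, 0.48 ± 0.29 on the log2 scale for Dnmt3a+/- minus WT, with a 95% interval of -0.17 to 1.13. The intervals were narrow for Hoxb2 (0.18, -0.14 to 0.5), Hoxb5 (0.17, -0.17 to 0.51) and Hoxb8 (0.22, -0.24 to 0.69) and wide for Hoxb7 (-0.03, -1.24 to 1.19) and Hoxb9 (0.32, -0.93 to 1.58).

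Within Vwf+ cells, 0% of tested genes and none of the 8 were called (363 genes at an unadjusted p under 0.05, DESeq2 calling 5). Hoxb8 differed by 0.14 ± 0.28, Hoxb5 by 0.15 ± 0.21 and Hoxb9 by -0.19 ± 0.69. Both Dnmt3a+/- libraries were above both WT libraries for Hoxb5 alone of the 8 (22.5 and 20.7 against 19.5 CPM), as for 14.3% of tested genes; 13.9% were lower in that way. Within Vwf- cells, again 0% and none were called (211 genes at an unadjusted p under 0.05, DESeq2 calling 2). Hoxb4 had the largest estimate beside Hoxb9 there, 0.77 ± 0.41, from WT libraries at 20.7 and 15.2 CPM and Dnmt3a+/- libraries at 42 and 19.3 CPM, so it rests on the male Dnmt3a+/- library; without that library it was 0.09. For Hoxb2 both Vwf- Dnmt3a+/- libraries (14.1 and 13.3 CPM) lay above both Vwf- WT libraries (10.4 and 9.87 CPM), a log2 difference of 0.43 ± 0.2 (unadjusted p = 0.058, edgeR adjusted p = 1). It was the only one of the 8 without overlap there, where 13.1% of tested genes were higher and 10.2% lower in that way.

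**Figure D4:**
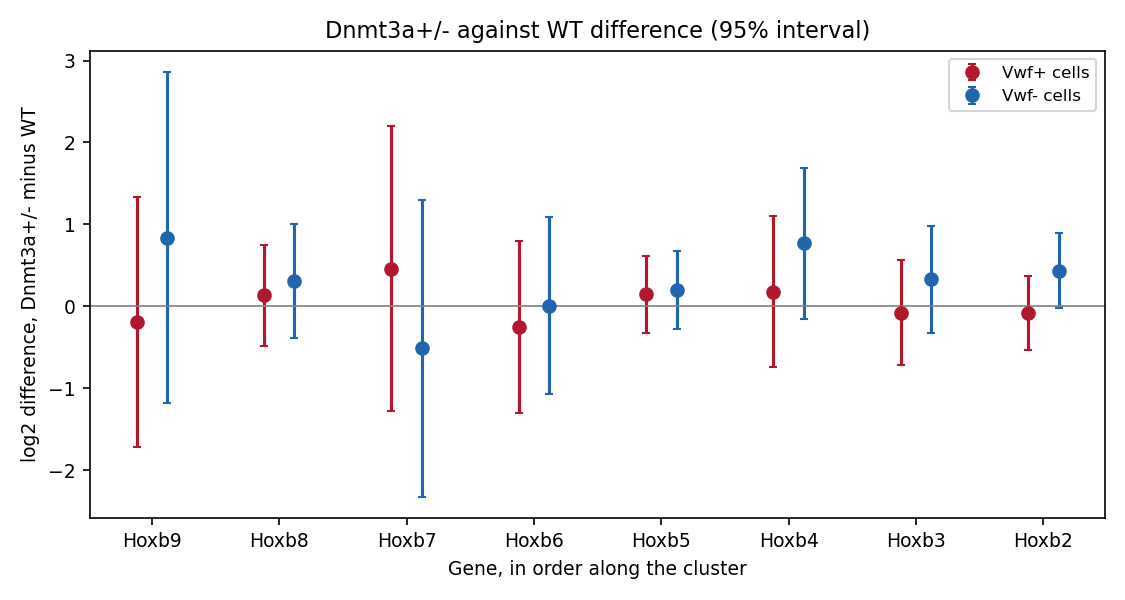
Log2 difference between Dnmt3a+/- and WT cells for each Hoxb gene in Vwf+ (red) and Vwf- (blue) cells, with 95% intervals from the edgeR fit. Each of the 16 intervals includes 0, and those of Hoxb7 and Hoxb9 are the widest.

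Sex, which here is also the replicate number, moved with 3 of the 8 genes. Female pools had less Hoxb4, Hoxb3 and Hoxb6 than male pools over the 4 groups, and none had more; 4.92% of tested genes were lower in female pools, 5.62% were higher and 10.5% were called in either direction. Hoxb4 was lower in each of the 4 female libraries (15.2 to 20.2 CPM) than in each of the 4 male libraries (20.7 to 42 CPM), as were 5.91% of tested genes, while 5.35% were higher in that way. The male to female ratio for Hoxb4 was 1.73 in Vwf+ WT, 1.9 in Vwf+ Dnmt3a+/-, 1.36 in Vwf- WT and 2.17 in Vwf- Dnmt3a+/- cells. The averaged log2 difference, female minus male, was -0.82 ± 0.13 for Hoxb4 (edgeR adjusted p = 0.00044), -0.46 ± 0.13 for Hoxb3 (0.028) and -0.71 ± 0.22 for Hoxb6 (0.043). The Hoxb3 and Hoxb6 calls were lost without any 1 of the 4 Dnmt3a+/- libraries (adjusted p 0.062 to 0.24). For Hoxb6 the difference was -0.44 and -0.42 without the male or the female Vwf- Dnmt3a+/- library and -1.08 without the female Vwf+ WT library.

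Hoxb2, Hoxb5 and Hoxb8 showed no such difference past the threshold, at 0.05 ± 0.14, -0.14 ± 0.15 and 0.35 ± 0.18. The nuclear RNA Malat1 made up 0.974% to 1.97% of counts in male and 0.446% to 0.585% in female libraries, and the ribosomal RNA gene Rn45s 6.08% to 8.96% in male and 8.24% to 11.9% in female libraries. Their part in the sex difference was not tested.

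The sex difference was then estimated in each genotype, a comparison added after the data had been seen. Its p-values lean largely on spread shared over genes. In Dnmt3a+/- cells 4 genes were lower in female pools and none higher (7.6% and 8.26% of tested genes were): Hoxb6 at -1.3 ± 0.22, Hoxb4 at -1.02 ± 0.17, Hoxb3 at -0.72 ± 0.16 and Hoxb9 at -1.46 ± 0.49 on the log2 scale (edgeR adjusted p = 1.9e-06, 1.6e-06, 0.00055 and 0.029). Without either Vwf- Dnmt3a+/- library the Hoxb9 call was lost (-0.66, adjusted p = 0.66, and -0.63, 0.68), and so was that of Hoxb3 (-0.54 and -0.51, both 0.24). The Hoxb9 difference was -4.27 without either Vwf+ Dnmt3a+/- library and -0.59 with limma on log2(TPM + 1) (0.23), and DESeq2 did not call it (0.056). In WT cells Hoxb4 alone of the 8 was lower (0.848% of tested genes were, and 1.06% were higher), at -0.61 ± 0.17 (edgeR adjusted p = 0.033). That call was lost with DESeq2 (adjusted p = 0.14) and without any 1 WT library (0.092 to 0.81). For the difference between the genotypes itself, 1 of the 8 genes, Hoxb6, passed (0.383% of tested genes did, 0.17% with a higher and 0.214% with a lower value), at -1.2 ± 0.31 (edgeR adjusted p = 0.042). DESeq2 did not call it (0.38), and it was lost without either Vwf+ WT library (-0.67 and -0.71, both 1) or either Vwf- Dnmt3a+/- library (-0.9 and -0.87, both 0.66). None of the 8 passed for a difference of the sex effect between Vwf+ and Vwf- cells, where 0.0377% of tested genes did (0.0314% higher, 0.00628% lower) and 404 genes, none of the 8, had an unadjusted p under 0.05; leaving out the female Vwf+ Dnmt3a+/- library called 1 of the 8.

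**Figure D5:**
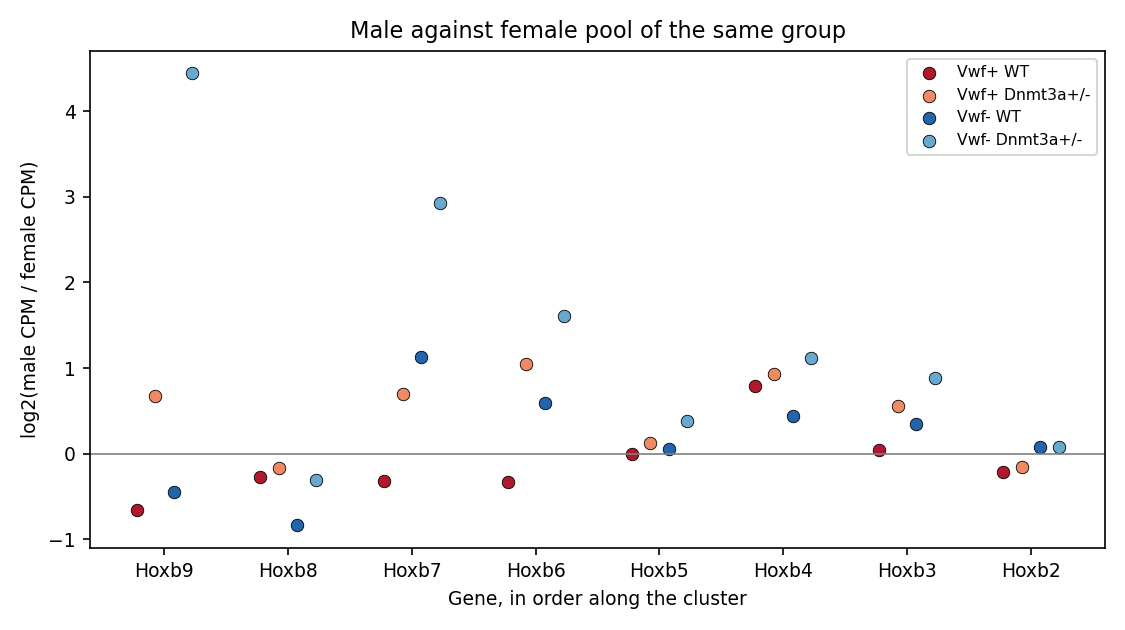
Log2 ratio of the male to the female pool of the same group for each Hoxb gene; values above 0 are higher in the male pool. All 4 points of Hoxb4 lie above 0, whereas Hoxb6 is above 0 in 3 groups and below it in Vwf+ WT cells, and the Hoxb9 and Hoxb7 points of Vwf- Dnmt3a+/- cells rest on 1 and 5 female counts.

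Of 31 listed genes of the Hoxa, Hoxc and Hoxd clusters with Hoxb1 and Hoxb13, 14 were tested and none was called between Vwf+ and Vwf- cells, with a median log2 difference of 0.11; at the 5.44% called over all tested genes, a list of this size would hold few or no calls. The 2 with the smallest p were Hoxc6 at 1.22 ± 0.36 (edgeR adjusted p = 0.086) and Hoxa9, a driver of stem cell self-renewal, at -0.39 ± 0.13 (0.13). Hoxb1 had 0 to 16 counts and Hoxb13 0 to 12 counts per library, and neither was tested. In the sex comparison Hoxa5 (-0.62 ± 0.11, edgeR adjusted p = 0.002) and Hoxa6 (-0.57 ± 0.15, 0.016), 2 of the 14, were lower in female pools, beside 4.92% of all tested genes.

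Among noncoding transcripts of the cluster, Gm53, between Hoxb13 and Hoxb9, had 47 and 27 counts in Vwf+ Dnmt3a+/- and 20 and 0 in Vwf+ WT libraries, against 10 and 3 in the Vwf- Dnmt3a+/- and 6 and 0 in the Vwf- WT libraries. Its log2 difference of 2.6 ± 1.21 did not pass (edgeR adjusted p = 0.31). Hoxb5os, antisense to Hoxb5 and Hoxb6, was at 0.58 ± 0.32 (0.43), and Mir10a, with 0 to 46 counts per library, at -0.51 ± 1.07 (0.89). Of the 10 genes flanking the cluster, 5 on each side, 7 were tested and none was called, a list too short to read against 5.44%. The smallest p-values were those of Skap1, an adaptor protein of T cells, at 1.98 ± 0.54 (0.065) and Cbx1, a heterochromatin protein, at -0.29 ± 0.12 (0.27).

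Partners and regulators of Hox genes were read from lists, beside the 3.76% of all tested genes that rose and the 1.68% that fell. Among the TALE homeodomain cofactors, Pbx3 rose in Vwf+ cells by 0.47 ± 0.11 and Meis2 by 2.51 ± 0.5 on the log2 scale (edgeR adjusted p = 0.034 and 0.016), and none fell. Meis1, the main Meis gene of stem cells, was at -0.03 ± 0.12. Of 27 tested activating regulators 2 were called, a share near that of all genes (5.44%): Mllt3, a reader of acetylated histones that maintains stem cells, rose by 1.05 ± 0.15 (adjusted p = 0.0026), and Dot1l, the H3K79 methyltransferase it recruits, was lower at -0.48 ± 0.11 (0.03). Kmt2a, which encodes Mll, was at -0.15 ± 0.14 and not called.

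Of 26 repressive regulators 3 were called: Ezh1, a Polycomb methyltransferase, rose by 0.93 ± 0.11 (edgeR adjusted p = 0.00097), while its paralog Ezh2 (-0.71 ± 0.18, 0.043) and the DNA methyltransferase Dnmt3b (-0.53 ± 0.1, 0.012) fell. Of 15 tested retinoid pathway genes, 3 rose (3.76% of all tested genes did) and none fell: Rdh10, which makes retinal, by 1.62 ± 0.16 (adjusted p = 0.00034), Cyp26b1, which breaks down retinoic acid, by 1.66 ± 0.3 (0.0095), and the receptor gene Rarb by 1.23 ± 0.31 (just under 0.05). The median over the retinoid list was 0.39, over the activating list -0.1 and over the repressive list -0.13, beside -0.01 for all tested genes.

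Genes whose pattern over the 8 libraries was nearest to that of each Hoxb gene were found by the root mean square difference of centred log2 CPM. Candidates were genes with a mean log2 CPM of at least 3, which left out Hoxb7, Hoxb8 and Hoxb9. For Hoxb8 the nearest of 10176 genes was Vwf, at 0.29, where the median gene was at 1.92; Clu (0.48) and Klrb1c (0.5) followed. For Hoxb9 the nearest candidates were Clu (0.82), Vwf (1.01) and Gpr183 (1.05), while Hoxb8, not a candidate, stood at 1.02 from it. For Hoxb7 the nearest was Hoxb6 (0.46). Hoxb5 lay nearest to Evc2 (0.11), Sbf2 (0.12) and the integrin gene Itgb3 (0.12). Bmp4 (0.31) and Sult1a1 (0.33) were among the genes nearest to Hoxb6, and Hoxb2 lay nearest to 9530082P21Rik (0.1), Camkk1 (0.15) and Syt11 (0.15). Hoxb3 lay nearest to Uba7 (0.11), Smim24 (0.12) and Ier2 (0.12), and Hoxb4 to Mtmr11 (0.13), E130102H24Rik (0.14) and Spo11 (0.15). These values are descriptions over 8 libraries that share the sort and the sex of the pools.

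Markers of stem cells and of other cells also moved with the Vwf sort, where 3.76% of all tested genes rose. The 12 stem cell markers summed to 3590 to 3990 CPM in Vwf+ and 3180 to 3540 CPM in Vwf- libraries, and 4 of them rose (Slamf1, Mecom, Ctnnal1 and Fgd5), with a median log2 difference of 0.35. The 14 endothelial and stromal markers summed to 272 to 335 CPM in Vwf+ and 162 to 216 CPM in Vwf- libraries, with none at 0 in any library, and 4 of them rose (Cldn5, Kdr, Cxcl12 and Cdh5). The 9 neutrophil markers summed to 140 to 239 CPM in Vwf+ and 76.3 to 127 CPM in Vwf- libraries, and Elane and Prtn3, genes of immature granulocytes, rose (2 of 8 tested). The median over the 8 was -0.38, with genes of late granulocytes such as Ngp (-1.08 ± 0.83) and S100a8 (-0.91 ± 0.54) below 0 and not called; Retnlg was at 0 in 2 Vwf+ libraries. The 10 megakaryocyte markers in the table summed to 260 to 447 CPM in Vwf+ and 209 to 265 CPM in Vwf- libraries, and Gp1bb and Pf4 rose (2 of 9 tested); Gp6 was at 0 in 2 Vwf+ libraries. The 8 T and NK cell markers summed to 41.6 to 88.3 CPM in Vwf+ and 13.2 to 17.2 CPM in Vwf- libraries, and Klrb1c rose (1 of 3 tested); Cd3g was at 0 in 6 libraries and 1 to 4 of the markers at 0 in each library. Their part in the Hoxb differences was not tested.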

How the data were processed

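Cells, kit and labels are as described above; RNA was extracted and libraries made with a low-input total RNA kit, per the labels' protocols. Trim Galore, STAR, featureCounts and DESeq2, with the build mm10, are listed without versions or roles, per the submitters' processing notes. Annotation, strand setting and use of molecular identifiers are not given in the sources used here. The deposited counts are whole numbers per gene. The deposited TPM values are those counts divided by 1 fixed length per gene and scaled to the library (100% of values with at least 20 counts fit within 1%).

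The members and gene lists were chosen with earlier results of these data known. Counts were tested in R 4.3.3 with edgeR 4.0.16: filterByExpr (minimum count 10), TMM factors of 0.958 to 1.06, a model of 4 group means over all 8 libraries (4 residual degrees of freedom), the quasi-likelihood F-test and Benjamini-Hochberg adjustment over 15917 genes at 0.05. A sex term was added for the sex comparison (3 residual degrees of freedom), and a term per genotype or per Vwf fraction for comparisons added after seeing the data (2). Each SE is the log2 difference over the square root of F. The script was tested on simulated data. Alternatives were DESeq2 1.42.0, RLE factors, no count filter, limma 3.58.1 on log2(TPM + 1), a replicate block, subsets and each library left out. Named genes are the 8 members, list genes past the threshold or, where none passed, the 2 with the smallest p, and the 3 nearest genes by pattern; Kmt2a, Meis1, Ngp and S100a8 were named for their role after their values were seen. Of 16 listed noncoding transcripts of the cluster, several are annotated elsewhere and were left out of the text. Protein sequences of the members were not analysed here. Some genes that this rule names are not reported here.

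Replicate numbers carry the sex in every group. Deviations of same-numbered libraries from their group means correlated across 15917 genes, at r of 0.13 to 0.3 in all 6 pairs of groups. The numbers were therefore read as pairing the libraries. The reported fit has no term for this pairing, so differences between replicates add to its spread and can make its p-values too large. With the replicate block, 2132 genes were called between Vwf+ and Vwf- cells, against 866. For genotype averaged it called 30, against 0, and none of the 8 Hoxb genes. Each library is a pool of mice, and whether the Vwf+ and Vwf- pools of a genotype and sex share mice was not established here. With 2 libraries per group, p-values rest on spread shared over groups.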

Additional observations from a re-analysis of the deposited data

Results flagged for a closer look

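The sex difference of Hoxb6 was not the same in the 2 genotypes by the test of that difference: the log2 difference, female minus male, of Dnmt3a+/- cells minus that of WT cells was -1.2 ± 0.31 (edgeR adjusted p = 0.042; 61 genes called). The male pool read 31.2 CPM and the female pool 15.2 CPM in Vwf+ Dnmt3a+/- cells, against 9.74 and 3.19 CPM in the Vwf- Dnmt3a+/- pair. The WT pairs read 24.5 and 30.6 CPM (Vwf+) and 7.78 and 5.16 CPM (Vwf-). The comparison was added after the data had been seen, and DESeq2 (adjusted p = 0.38), RLE factors (0.16) and limma on TPM (0.41) did not call it.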

How the results depend on the processing

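In the order DESeq2, no filter on low counts, limma on TPM, replicate block and replicate block within genotype, the count of genes called between Vwf+ and Vwf- cells was 1418, 1649, 563, 2132 and 2754 (866 in the reported fit). In WT it was 731, 1059, 103, 1329 and 1872 (314), with 747 from the 4 WT libraries alone. In Dnmt3a+/- it was 494, 633, 89, 855 and 1257 (169), with 42 from the 4 Dnmt3a+/- libraries alone. Leaving out 1 library gave 472 to 1387, 64 to 639 and 75 to 291. Of the 8 Hoxb genes, 4 to 7, 1 to 5 and 1 to 5 were then called. In WT limma called 2 of the 8 and the block within genotype 7; in Dnmt3a+/- both blocks and no filter called 5 and the 4 libraries alone 1. The pairing changed no direction of a called Hoxb gene, and no other call than those of Hoxb3, Hoxb6 and Hoxb7 given above, apart from Hoxb4 in WT (0.49 with the block within genotype).

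For genotype, DESeq2, no filter and the replicate block called 16, 61 and 30 genes averaged, 5, 53 and 6 in Vwf+ and 2, 27 and 2 in Vwf- cells; no filter called 24 for the interaction, and leaving out 1 library 0 to 3 averaged. None of the 8 was called in any of these. For sex, limma called 287 genes (1 of the 8) averaged, 71 (0) in WT and 810 (2) in Dnmt3a+/-. DESeq2 and RLE factors called 165 and 187 (0 of the 8) in WT and 25 and 22 (0) for the difference between genotypes, where limma also called 0 of the 8. For the difference between Vwf fractions DESeq2, RLE factors, no filter and limma called 2, 18, 35 and 1 genes. Leaving out 1 library gave 713 to 2922 genes (1 to 4 of the 8), in WT 152 to 353 (0 to 1), in Dnmt3a+/- 474 to 2625 (2 to 4), 39 to 174 (0 to 2) for the genotype difference and 11 to 71 (0 to 1) for the Vwf difference.

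Directions turned for uncalled values alone. With limma on TPM they were 0.03 (Hoxb7, genotype averaged), 0.06 and 0.04 (Hoxb2 and Hoxb3, genotype in Vwf+), -0.17 (Hoxb6, genotype in Vwf-), 0.13 and 0.09 (Hoxb5 and Hoxb8, interaction with Vwf) and 0.01 (Hoxb2, sex by genotype); with the replicate block Hoxb6 in Vwf- was -0.09. Leaving out 1 library gave, for Vwf, Hoxb4 -0.04 to 0.55 averaged and -0.61 to 0.6 in Dnmt3a+/-, and Hoxb3 -0.03 to 0.86 there. For genotype averaged it gave Hoxb3 -0.13 to 0.3, Hoxb6 -0.64 to 0.16, Hoxb7 -1.08 to 0.36 and Hoxb9 -1.38 to 0.74. In Vwf+ it gave Hoxb2 -0.18 to 0.03, Hoxb3 -0.38 to 0.18, Hoxb4 -0.35 to 0.63, Hoxb6 -0.86 to 0.18 and Hoxb9 -0.57 to 0.17. In Vwf- it gave Hoxb3 -0.19 to 0.69, Hoxb5 -0.02 to 0.36, Hoxb6 -1.03 to 0.58, Hoxb7 -2.63 to 0.27, Hoxb8 -0.04 to 0.79 and Hoxb9 -2.57 to 1.69. For the interaction with Vwf it gave Hoxb3 -0.77 to 0.12, Hoxb4 -1.12 to 0.09, Hoxb5 -0.22 to 0.17, Hoxb6 -0.87 to 0.79, Hoxb8 -0.65 to 0.18 and Hoxb9 -1.89 to 2.38. For sex it gave Hoxb2 0 to 0.11 and Hoxb9 -1.08 to 0.07 averaged, Hoxb2 -0.1 to 0.21, Hoxb6 -0.61 to 0.32 and Hoxb7 -1.14 to 0.31 in WT, Hoxb2 -0.09 to 0.21 in Dnmt3a+/-, and Hoxb2 -0.18 to 0.16 for the genotype difference. The cause of these changes was not tested. Depth limits Hoxb9 and Hoxb7 in Vwf- cells, with 1 to 29 and 5 to 51 counts.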
